A study of Homo sapiens with 10 samples.

Results

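The genes described here make cholesterol and fatty acids. They are 31 genes of the 58222 in the table, picked by name, with earlier results of these data known. Of these, 21 belong to the cholesterol branch, which runs through mevalonate and squalene, with its regulators. The other 10 belong to the fatty-acid branch, from the supply of acetyl-CoA and NADPH to desaturation. All 31 were found by symbol, and all 31 passed the filter on low values (at least 1 TPM in at least 2 libraries), which 15167 genes passed in all. The cells were OVCAR-3, an established human ovarian adenocarcinoma line, and their RNA was sequenced in 5 groups of 2 biological replicates, grown in RPMI medium with fetal bovine serum. Day1 cells had been immobilized in silica gel for 24 hours and Day3 cells for 3 days. Extracted cells had survived 3 days in the gel and had then recovered for 2 weeks. Treated cells were never in gel: they outlived 0.5 uM of the DNA-crosslinking drug cisplatin, given for 24 hours, and likewise recovered for 2 weeks. Control cells had neither gel nor drug. Extracted and Treated are populations of survivors, so selection of cells and a lasting response cannot be told apart in them.

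A cell makes both classes of lipid from cytosolic acetyl-CoA. In the cholesterol branch, acetyl-CoA units are joined and reduced to mevalonate, mevalonate is turned into isoprenoid units, and squalene built from these is closed into a ring and trimmed to cholesterol. In the fatty-acid branch, acetyl-CoA carboxylase and fatty acid synthase build a saturated chain, which elongases lengthen and desaturases furnish with double bonds. A pair of membrane-bound transcription factors, SREBP-1 (gene SREBF1) and SREBP-2 (gene SREBF2), switch on the genes of these branches. When sterols are plentiful, INSIG1 and INSIG2 hold the SREBP proteins in the endoplasmic reticulum. SREBP-2 acts mainly on cholesterol genes and SREBP-1 mainly on fatty-acid genes. Ovarian tumours often express fatty acid synthase at a high level, and tumour cells draw on both synthesis and uptake of lipids.

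The values are TPM (a share of each library's transcripts, corrected for transcript length and scaled to a fixed total), and TPM give no read depth. Between 13896 and 14173 genes per library stood at 1 TPM or more. The 11 markers of ovarian epithelial tumours were all at 1 TPM or more in all 10 libraries. Markers of other cell types were low: fibroblast markers summed to 7.19 to 15.3 TPM, leukocyte markers to 2.34 to 9.05 TPM, endothelial markers to 0.713 to 2.05 TPM, and markers of fat and liver cells to 0.62 to 1.79 TPM. Shares of RNA classes moved with the groups. The 13 mitochondrial mRNAs took 2.29% and 3.92% of TPM in Day1, 5.97% and 7.61% in Day3, 11.1% and 10.6% in Extracted, 10.8% and 10.4% in Treated, and 16.7% and 15.8% in Control. Small RNA genes took 14.7% in Treated replicate 2 and 3.21% in Extracted replicate 1, against 0.196% to 1.24% in the other 8 libraries. Such shares push all other TPM of a library up or down, so counts below are also given after both classes were removed and TPM rescaled, and after scaling by the median ratio of genes. The numbers of replicates do not tie libraries of different groups together, and in bulk RNA fewer expressing cells and less RNA per cell cannot be told apart.

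The promoters of cholesterol genes are known for short boxes bound by NF-Y (CCAAT), which works beside SREBP, and for sterol regulatory elements, for which TCACNCCAC is a consensus. The 250 bases before the annotated start were read from RefSeq, build GRCh38.p14, which held 27 of the 31 genes; ACAT2, FDFT1, SQLE and FASN had no entry. CCAAT on either strand stood in at least 1 such window of 15 of 18 cholesterol genes (83.3%) and of 4 of 9 fatty-acid genes (44.4%), against 10102 of 27305 genes in the whole RefSeq table (37.0%). At least 2 copies in a window were present in 10 of 18 cholesterol genes (55.6%), 3 of 9 fatty-acid genes (33.3%) and 11.5% of all genes. TCACNCCAC stood in SREBF2 alone among the 27, starting 133 bases before the annotated start, and in 297 of all 27305 genes (1.09%). GGGCGG, the box of Sp1, was common: 17 of 18 cholesterol genes, 9 of 9 fatty-acid genes and 46.2% of all. CACGTG, an E-box, stood in 2 of 18, 0 of 9 and 7.73% of all. All 4 motifs were searched on both strands. A match is a run of letters and does not show that a factor is bound.

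Below are 6 of these windows, 5′ to 3′ on the gene's own strand, for a choice of the genes described below. They belong to the factor SREBF2, 4 cholesterol enzymes and the desaturase gene FADS2. FADS2 is 1 of 5 fatty-acid genes that lack CCAAT and TCACNCCAC in their windows. All the cholesterol windows shown hold CCAAT, which the window of PMVK, not shown, lacks. Capitals mark CCAAT or its reverse complement ATTGG, and, in SREBF2, also the match to TCACNCCAC. Where the copies overlap, as in the CCAATTGG of NSDHL, the run of capitals holds a copy on each strand. The first listed start is shown where a gene has several.
SREBF2, chr22:41832855-41833104, plus strand: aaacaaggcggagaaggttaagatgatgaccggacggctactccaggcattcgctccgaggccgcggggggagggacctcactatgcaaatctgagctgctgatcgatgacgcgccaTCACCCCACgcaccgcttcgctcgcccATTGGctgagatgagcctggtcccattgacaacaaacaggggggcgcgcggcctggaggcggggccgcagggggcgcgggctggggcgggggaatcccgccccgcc
HMGCS1, chr5:43313413-43313662, minus strand: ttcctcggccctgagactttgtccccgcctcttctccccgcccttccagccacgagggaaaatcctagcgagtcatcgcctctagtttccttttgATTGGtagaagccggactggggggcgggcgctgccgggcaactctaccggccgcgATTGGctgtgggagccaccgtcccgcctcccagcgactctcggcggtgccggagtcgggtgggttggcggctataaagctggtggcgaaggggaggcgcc
MSMO1, chr4:165327419-165327668, plus strand: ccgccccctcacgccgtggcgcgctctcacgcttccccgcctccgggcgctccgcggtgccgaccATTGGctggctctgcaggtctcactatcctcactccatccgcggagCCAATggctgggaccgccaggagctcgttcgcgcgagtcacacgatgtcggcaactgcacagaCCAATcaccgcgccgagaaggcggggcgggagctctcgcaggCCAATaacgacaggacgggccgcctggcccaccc
NSDHL, chrX:152830813-152831062, plus strand: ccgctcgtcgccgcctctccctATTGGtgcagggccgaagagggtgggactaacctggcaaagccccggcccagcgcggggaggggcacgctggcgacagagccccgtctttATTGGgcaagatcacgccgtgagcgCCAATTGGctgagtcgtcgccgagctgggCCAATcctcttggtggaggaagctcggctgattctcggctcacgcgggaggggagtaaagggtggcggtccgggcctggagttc
DHCR7, chr11:71448394-71448643, minus strand: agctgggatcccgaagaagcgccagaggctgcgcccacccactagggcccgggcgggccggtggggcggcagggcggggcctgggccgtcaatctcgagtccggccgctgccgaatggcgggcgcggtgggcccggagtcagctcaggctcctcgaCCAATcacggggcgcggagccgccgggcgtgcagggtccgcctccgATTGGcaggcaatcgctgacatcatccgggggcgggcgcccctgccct
FADS2, chr11:61815953-61816202, plus strand: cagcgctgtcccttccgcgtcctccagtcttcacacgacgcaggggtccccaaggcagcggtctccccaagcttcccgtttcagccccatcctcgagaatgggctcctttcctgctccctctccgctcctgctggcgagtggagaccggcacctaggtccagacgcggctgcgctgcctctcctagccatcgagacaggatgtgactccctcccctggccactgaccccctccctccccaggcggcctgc

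Each group was compared with Control, and 3 further pairs followed from the design: Day3 with Day1, Extracted with Day3 and Treated with Extracted. Differences are on the log2(TPM + 1) scale, and a gene was called where limma's p, adjusted over all 15167 genes by the Benjamini-Hochberg method, was under 0.05. The 4 comparisons with Control share the same 2 Control libraries. Among the 217 tests of the 31 genes, 40 gave a call, 25 of them against Control. In 1 comparison or more, 20 genes were called, and 11 were called in none: FDPS, MVK, MVD, SQLE, CYP51A1, EBP, SC5D, INSIG2, STARD4, ACACA and ELOVL6. Only HMGCS1, MSMO1 and FADS2 were called in 3 of the 4 comparisons with Control.

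Against Control, 9 of the 31 genes were called in Day1, 6 higher and 3 lower, where 20.7% of all tested genes were called, 14.4% higher and 6.28% lower. In Day3, 4 were called higher and 1 lower, against a background of 9.82% (5.18% higher, 4.64% lower). In Extracted, 0 were called under limma at the adjusted threshold and 4 had an unadjusted p under 0.05, against 1.99% of all genes (0.857% higher, 1.13% lower). In Treated, 1 was called higher and 10 lower, where 24.5% of all genes were called, 6.28% higher and 18.2% lower. The median difference of all tested genes was 0.12 for Day1, 0.06 for Day3, -0.02 for Extracted and -0.15 for Treated, and it moved with the scaling: Day1 gave 0.01 under median ratios and -0.06 after removal of mitochondrial mRNAs and small RNAs, and Treated gave -0.01 and -0.12. The direction of the calls over all genes moved with it. In Day1, 2180 genes were called higher and 952 lower as planned, 1632 and 1683 under median ratios, and 1033 and 2114 after the removal. In Day3 the counts were 786 higher and 703 lower, 832 and 1138, and 462 and 1474. In Extracted they were 130 higher and 172 lower, 331 and 308, and 229 and 596. In Treated they were 953 higher and 2762 lower, 1853 and 1777, and 1291 and 3027.

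**Figure D1:**
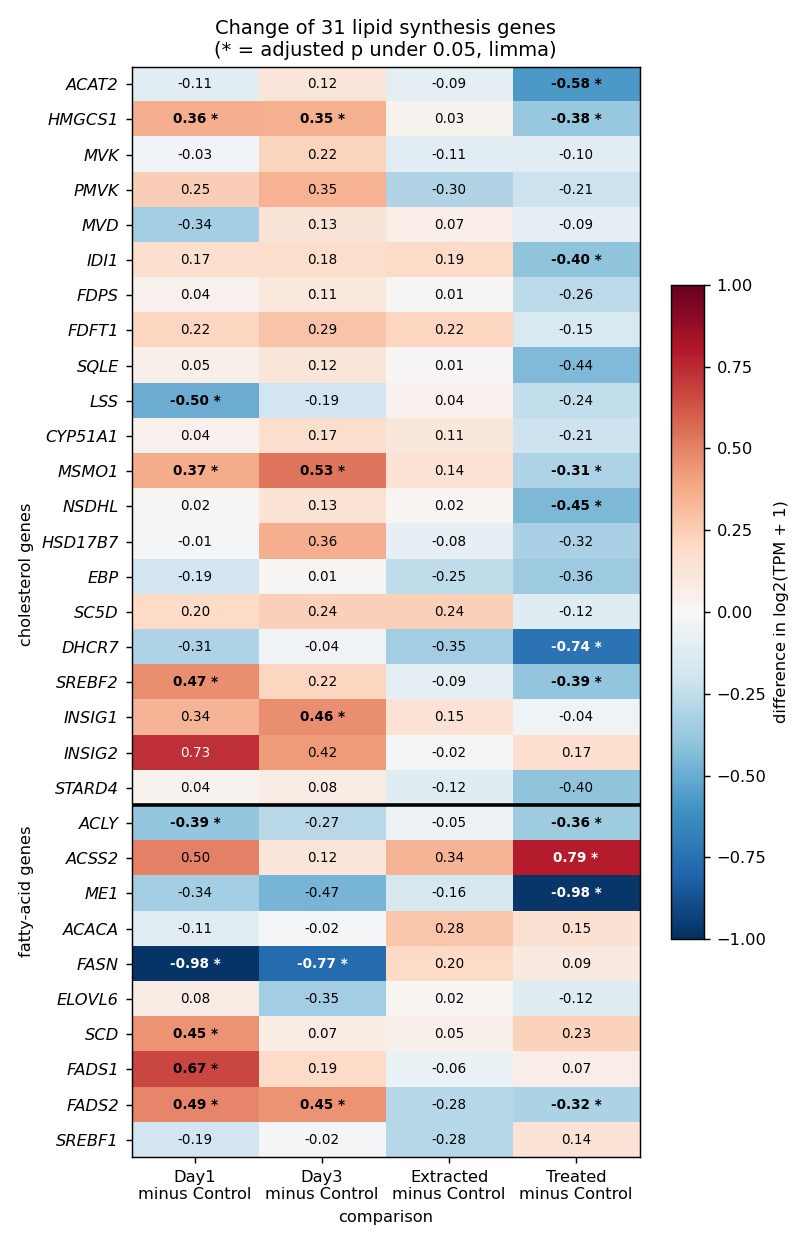
Difference from Control in log2(TPM + 1) for each of the 31 genes (rows, in pathway order, cholesterol genes above the black line and fatty-acid genes below it) in Day1, Day3, Extracted and Treated (columns), with a star where limma's adjusted p was under 0.05. The FASN row is deep blue at -0.98 and -0.77 in the gel columns and pale in the recovered ones, and the cholesterol rows are mostly blue in the Treated column.

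In the gel, the fatty-acid branch split. FASN, which encodes fatty acid synthase, fell to 53.2 ± 3.66 TPM in Day1 and 61.7 ± 0.952 TPM in Day3, against 106.0 ± 5.60 TPM in Control (SD, n = 2 each). The desaturase genes SCD, FADS1 and FADS2 were called higher in Day1, and of them only FADS2 in Day3. FASN (ENSG00000169710, chromosome 17, 82078333 to 82098332, minus strand, GRCh38) stood at 55.8 and 50.7 TPM in Day1, 61.0 and 62.4 TPM in Day3, 117.9 and 125.4 TPM in Extracted, 111.6 and 114.3 TPM in Treated, and 102.1 and 110.0 TPM in Control. All 4 gel libraries lay below all 6 others. The difference from Control was -0.98 in Day1 (SE 0.093, adjusted p = 0.000241) and -0.77 in Day3 (SE 0.093, adjusted p = 0.00186), and 1.87% and 3.16% of all tested genes had a lower value in these comparisons. Both calls held under every other setting tried and without each library in turn, where the difference ran from -1.05 to -0.91 for Day1 and from -0.82 to -0.72 for Day3. FASN did not differ detectably between Day3 and Day1 (0.21, adjusted p = 0.288).

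After 2 weeks out of the gel FASN was back at or above the Control level. Extracted averaged 121.6 ± 5.37 TPM, against 61.7 ± 0.952 TPM in Day3 (SD, n = 2 each), a difference of 0.97 (SE 0.093, adjusted p = 0.000274). Extracted against Control gave 0.20 (adjusted p = 0.305) and Treated against Control 0.09 (adjusted p = 0.509), neither of which passed the test. The neighbours of FASN in chain building were called in no comparison, with larger SEs than FASN (0.21 for ACACA, 0.19 for ELOVL6). ACACA, the acetyl-CoA carboxylase that makes malonyl-CoA for FASN, averaged 15.5 ± 5.49 TPM in Day1, 16.1 ± 0.876 TPM in Day3, 20.0 ± 0.113 TPM in Extracted, 18.5 ± 4.43 TPM in Treated and 16.3 ± 0.273 TPM in Control, with 0 calls in 7 comparisons in limma and an unadjusted p under 0.05 in 0. ELOVL6, the elongase that lengthens palmitate, averaged 31.6 ± 5.30, 23.2 ± 0.904, 30.4 ± 5.70, 27.6 ± 6.50 and 29.8 ± 3.20 TPM in the same order and also had 0 calls, with an unadjusted p under 0.05 in 1 comparison. In the directions of FASN, ELOVL6 gave -0.35 in Day3 against Control (adjusted p = 0.269) and 0.36 in Extracted against Day3 (adjusted p = 0.21). Neither passed the test.

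**Figure D2:**
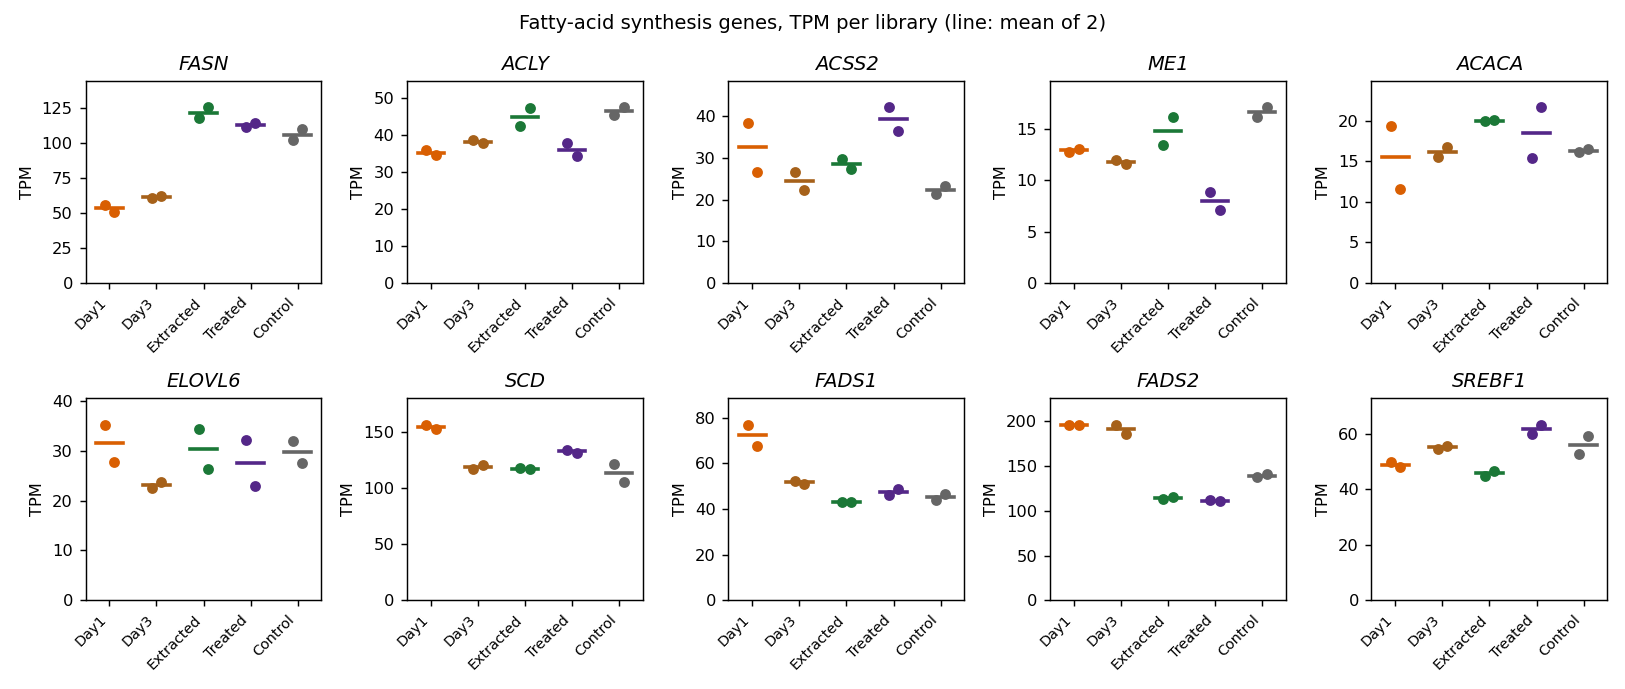
TPM of the 10 fatty-acid genes (one panel per gene, y axis from 0) in each of the 2 libraries of Day1, Day3, Extracted, Treated and Control, with a line at the mean. The FASN points of Day1 and Day3 lie between 50.7 and 62.4 TPM, below all others, while the FADS2 points of the same groups lie between 186.1 and 196.5 TPM, above all others.

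Desaturases place double bonds in fatty acids: FADS2 carries out the first step on polyunsaturated chains, FADS1 a later one, and SCD turns stearate into oleate. FADS2 (ENSG00000134824, chromosome 11) stood at 196.5 and 195.6 TPM in Day1, 196.0 and 186.1 TPM in Day3, 113.3 and 115.7 TPM in Extracted, 112.3 and 110.7 TPM in Treated, and 137.6 and 141.2 TPM in Control. The gel libraries lay above Control and both recovered groups lay below it, with no overlap. FADS2 rose by 0.49 in Day1 (SE 0.081, adjusted p = 0.00377) and by 0.45 in Day3 (SE 0.081, adjusted p = 0.0105). Treated against Control gave -0.32 (adjusted p = 0.0192), Extracted against Control -0.28 (adjusted p = 0.115), and Extracted against Day3 -0.73 (adjusted p = 0.000587). The Day1 call and that between Extracted and Day3 held in every setting and without each library; the Day3 call was lost without any 1 of the 4 libraries compared (0.41 to 0.49), and the Treated call without either Control library (-0.34 to -0.30) and under median-ratio scaling.

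FADS1 (ENSG00000149485, chromosome 11) stood at 76.9 and 67.7 TPM in Day1, 52.4 and 51.0 TPM in Day3, 43.1 and 43.2 TPM in Extracted, 45.9 and 48.7 TPM in Treated, and 43.8 and 46.5 TPM in Control. Day1 lay above all other libraries and Day3 above those of the 3 remaining groups. FADS1 rose by 0.67 in Day1 (SE 0.099, adjusted p = 0.00236), in every setting and without each library (0.57 to 0.76). At Day3 the difference from Control was 0.19 (adjusted p = 0.254), and the difference between Day3 and Day1, -0.47 (adjusted p = 0.0407), was called in the fit as planned and with the smaller pseudocount but in none of the 5 other settings. FADS1 and FADS2 share 29694 bases on opposite strands in GENCODE 29 (chromosome 11, 61799625 to 61829318 and 61792980 to 61867354), and the strand setting of the libraries is not given in the sources used here, so reads of that stretch may have been counted for either gene. FADS2 also shares 4265 bases with FEN1 (65.0 to 103.7 TPM), which lies on the same strand, so strand could not separate reads there. SCD stood at 156.8 and 152.7 TPM in Day1, 117.3 and 121.1 TPM in Day3, 118.3 and 116.8 TPM in Extracted, 133.9 and 131.7 TPM in Treated, and 121.2 and 105.8 TPM in Control. Only Day1 was called, at 0.45 (SE 0.092, adjusted p = 0.00971), and this call was lost without Control replicate 2 (lowest value without a library 0.35) and when mitochondrial mRNAs and small RNAs were removed.

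Among genes that supply the branch, ME1 and ACSS2 differed most from Control in Treated, and ACLY in Day1. ACLY makes cytosolic acetyl-CoA from citrate, ACSS2 makes it from acetate, and ME1, the cytosolic malic enzyme, yields NADPH. ME1 (chromosome 6) stood at 12.7 and 13.1 TPM in Day1, 11.9 and 11.5 TPM in Day3, 13.4 and 16.2 TPM in Extracted, 8.89 and 7.11 TPM in Treated, and 16.1 and 17.1 TPM in Control. The 2 Treated libraries were the lowest of the 10, and all gel libraries lay below both Control libraries. Day1 against Control gave -0.34 (adjusted p = 0.103) and Day3 -0.47 (adjusted p = 0.059), neither of which passed the test. ME1 fell by 0.98 in Treated against Control (SE 0.14, adjusted p = 0.0012) and by 0.81 against Extracted (SE 0.14, adjusted p = 0.00868), and 2.29% of tested genes had a lower value than ME1 in Treated against Control. The first of these calls held in every setting and without each library, and the second was lost without Extracted replicate 2 and in a fit of these groups alone.

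ACSS2 (chromosome 20) stood at 38.4 and 26.7 TPM in Day1, 26.6 and 22.4 TPM in Day3, 29.8 and 27.3 TPM in Extracted, 42.2 and 36.5 TPM in Treated, and 21.4 and 23.3 TPM in Control. The Treated libraries lay above Control, Extracted and Day3 with no overlap, and between them lay 1 Day1 library. ACSS2 rose by 0.79 in Treated against Control (SE 0.17, adjusted p = 0.00886), in every setting but not without Control replicate 1, and 3.34% of tested genes had a higher value. Day1 against Control gave 0.50 (adjusted p = 0.0579). ACLY (chromosome 17) stood at 35.8 and 34.5 TPM in Day1, 38.5 and 37.7 TPM in Day3, 42.4 and 47.3 TPM in Extracted, 37.9 and 34.2 TPM in Treated, and 45.3 and 47.4 TPM in Control. Day1, Day3 and Treated lay below Control and Extracted with no overlap. ACLY fell by 0.39 in Day1 (SE 0.10, adjusted p = 0.0251) and by 0.36 in Treated (SE 0.10, adjusted p = 0.0309); Day3 against Control gave -0.27 (adjusted p = 0.121). The Day1 call was lost without any 1 of the 4 libraries (-0.42 to -0.36), and the Treated call without either Control library or Treated replicate 2 (-0.43 to -0.28) and under median-ratio scaling.

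SREBF1, the gene of the factor that drives this branch, was called in no comparison with Control. It stood at 49.7 and 48.1 TPM in Day1, 54.7 and 55.7 TPM in Day3, 44.8 and 46.7 TPM in Extracted, 59.9 and 63.4 TPM in Treated, and 52.7 and 59.3 TPM in Control. Treated lay above all other libraries, and Extracted below them. Against Control Day1 differed by -0.19 (adjusted p = 0.19), Day3 by -0.02 (adjusted p = 0.933), Extracted by -0.28 (adjusted p = 0.164) and Treated by 0.14 (adjusted p = 0.323), none of which passed the test. The difference between Treated and Extracted, 0.42, was called (SE 0.097, adjusted p = 0.0246), but not without either Extracted library or Treated replicate 2 (0.38 to 0.46). The RNA level of SREBF1 says nothing of how much of its protein was cut and active.

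Counted as a branch, 5 of the 10 fatty-acid genes were called in Day1 (SCD, FADS1 and FADS2 higher, FASN and ACLY lower), with a median difference of -0.02 against 0.12 for all tested genes. In Day3, 2 were called, FADS2 higher and FASN lower. In Treated, 4 were called, ACSS2 higher and ME1, ACLY and FADS2 lower, with a median of 0.08 against -0.15 for all. Of all tested genes, 20.7% were called in Day1, 9.82% in Day3 and 24.5% in Treated. The splits of the fatty-acid genes depend on the scaling. Under median ratios they were 3 higher and 3 lower in Day1, 1 and 3 in Day3, and 2 and 1 in Treated (median 0.24, all genes -0.01), and after the removal they were 2 and 4, 1 and 3, and 1 and 3. Extracted had 0 calls against Control in limma (2 with an unadjusted p under 0.05), with a median of -0.02. Extracted against Day3 had 2 calls of 10, FASN higher and FADS2 lower, in a comparison where 17.1% of all tested genes were called (6.3% higher, 10.8% lower). Day3 against Day1 had 1, FADS1, where the background was 2.35% (0.659% higher, 1.69% lower). Treated against Extracted had 2, SREBF1 higher and ME1 lower, where it was 12.1% (3.24% higher, 8.87% lower). Under either other scaling, Extracted against Day3 had 3 higher and 1 lower, and Treated against Extracted 2 higher and 1 lower.

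Of the comparisons with Control, that of Treated had the most calls among the 21 cholesterol genes, and also among all tested genes (24.5%). Of the 21, 7 were called lower in Treated and 0 higher, where 18.2% of all tested genes were called lower and 6.28% higher. The median difference of the 21 was -0.31 against -0.15 for all tested genes, and 20 of 21 values were below 0. Most tested genes were below 0 as well: 5232 of 15167 had a value above it. Their summed level was 1180 and 1227 TPM in Day1, 1278 and 1267 TPM in Day3, 1137 and 1118 TPM in Extracted, 958 and 839 TPM in Treated, and 1109 and 1126 TPM in Control, so the Treated libraries held the lowest sums. The 7 were ACAT2, HMGCS1 and IDI1 of the mevalonate segment, MSMO1, NSDHL and DHCR7 of the segment after squalene, and SREBF2. The count rests on scaling and on single libraries: 2 genes, ACAT2 and DHCR7, were called lower under median-ratio scaling (median -0.15, where that of all genes was -0.01), 9 with mitochondrial mRNAs and small RNAs removed (median -0.28, all genes -0.12), 1 without Control replicate 1, Control replicate 2 or Treated replicate 2, and 10 without Treated replicate 1. Among the 15167 tested genes, 1777 were called lower in Treated under median-ratio scaling and 3027 after the removal. Under median ratios the 2 of 21 were thus a smaller share than that of all genes. Treated replicate 2 is the library in which small RNAs took 14.7% of TPM.

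DHCR7, which carries out the last step to cholesterol, had the largest fall of these genes (ENSG00000172893, chromosome 11). It stood at 52.6 and 47.7 TPM in Day1, 62.8 and 58.4 TPM in Day3, 47.5 and 50.0 TPM in Extracted, 34.0 and 39.9 TPM in Treated, and 59.3 and 65.1 TPM in Control. The Treated libraries were the lowest of the 10, and Day1 and Extracted also lay below Control with no overlap. DHCR7 averaged 37.0 ± 4.20 TPM in Treated and 62.2 ± 4.11 TPM in Control (SD, n = 2 each), a difference of -0.74 (SE 0.11, adjusted p = 0.00185), lower in every setting and without each library (-0.85 to -0.63), and 5.64% of tested genes had a lower value. Extracted against Control gave -0.35 (adjusted p = 0.149) and Day1 against Control -0.31 (adjusted p = 0.0796). An antisense RNA (AP002387.1, 4.15 to 11.2 TPM) overlaps 3484 bases of DHCR7.

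HMGCS1, the synthase that commits acetyl units to the mevalonate path, moved both ways. HMGCS1 (ENSG00000112972, chromosome 5) stood at 149.5 and 159.9 TPM in Day1, 154.0 and 153.0 TPM in Day3, 128.9 and 117.1 TPM in Extracted, 98.0 and 86.7 TPM in Treated, and 121.5 and 118.4 TPM in Control. Gel libraries lay above Control, Treated below it, and Extracted around it. The differences from Control were 0.36 in Day1 (SE 0.096, adjusted p = 0.0261), 0.35 in Day3 (SE 0.096, adjusted p = 0.047) and -0.38 in Treated (SE 0.096, adjusted p = 0.0199). Extracted was lower than Day3 by a difference of -0.32 (adjusted p = 0.0475), and Treated lower than Extracted by one of -0.41 (adjusted p = 0.0263). Neither gel call held under median-ratio scaling, after removal of mitochondrial mRNAs and small RNAs, or without any 1 of the 4 libraries (0.32 to 0.41 for Day1, 0.34 to 0.37 for Day3), and the Treated call was lost without 3 of its 4 (-0.46 to -0.29).

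MSMO1, which removes methyl groups from the sterol ring, was likewise highest in the gel groups and lowest in Treated. MSMO1 (ENSG00000052802, chromosome 4) stood at 57.4 and 60.4 TPM in Day1, 69.0 and 63.4 TPM in Day3, 49.6 and 51.0 TPM in Extracted, 35.5 and 37.6 TPM in Treated, and 43.2 and 47.7 TPM in Control. No group overlapped another, in the order Day3, Day1, Extracted, Control and Treated. Against Control it rose by 0.53 in Day3 (SE 0.099, adjusted p = 0.0121) and by 0.37 in Day1 (SE 0.099, adjusted p = 0.0273), and Treated gave -0.31 (adjusted p = 0.0466). Extracted against Day3 gave -0.39 (adjusted p = 0.0243) and Treated against Extracted -0.45 (adjusted p = 0.021). The Day3 call held in all 6 other settings but was lost without any 1 of the 4 libraries (0.46 to 0.60), and the calls of Day1 and Treated were lost under both other scalings and likewise without any 1 of their 4 libraries (0.30 to 0.44 and -0.38 to -0.24).

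Other members of the cholesterol branch were lower in Treated. NSDHL, a sterol dehydrogenase of the demethylation steps (chromosome X), stood at 27.4 and 27.3 TPM in Treated, against 38.1 and 37.1 TPM in Control, a difference of -0.45 (adjusted p = 0.0192). IDI1, the isomerase of the isoprenoid units (chromosome 10), stood at 25.8 and 21.5 TPM in Treated, against 31.4 and 31.4 TPM in Control, a difference of -0.40 (adjusted p = 0.0232). ACAT2, the cytosolic thiolase at the start of the path (chromosome 6), stood at 28.5 and 20.1 TPM in Treated, against 37.3 and 35.2 TPM in Control, a difference of -0.58 (adjusted p = 0.0272). In each of these 3 the Treated libraries lay below both Control libraries, and in each the call was lost without either Control library or Treated replicate 2; the differences without 1 library ran from -0.47 to -0.43 for NSDHL, -0.53 to -0.28 for IDI1 and -0.82 to -0.33 for ACAT2. ACAT2 shares 558 bases with TCP1 on the opposite strand, an abundant gene (128.5 to 172.0 TPM).

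Of the 20 values below 0, 13 did not pass the test, among them those of SQLE, the epoxidase that is a rate-limiting step after squalene (60.7 and 41.3 TPM in Treated, 68.1 and 68.5 TPM in Control, adjusted p = 0.0783), FDPS, which makes farnesyl diphosphate and is the most abundant of the 31 (237.8 ± 26.1 TPM in Treated, 284.8 ± 1.95 TPM in Control, adjusted p = 0.0638), and EBP, a sterol isomerase (53.2 ± 7.32 TPM in Treated, 68.4 ± 1.77 TPM in Control, adjusted p = 0.058). FDPS and HSD17B7 have pseudogene copies in the genome that can share reads with them. Against Extracted, which had the same recovery time, 6 of 21 cholesterol genes were called lower in Treated and 0 higher (HMGCS1, IDI1, FDFT1, MSMO1, NSDHL and DHCR7). Of all tested genes, 8.87% were called lower and 3.24% higher in this comparison. The median of the 21 was -0.30, where that of all tested genes was -0.13. FDFT1, which makes squalene, is the gene not among those against Control: it stood at 112.1 and 104.3 TPM in Treated, 140.0 and 139.5 TPM in Extracted, and 123.4 and 116.7 TPM in Control. The count of 6 became 1 (IDI1) under median-ratio scaling, 2 with mitochondrial mRNAs and small RNAs removed, 0 without either Extracted library, and 11 without Treated replicate 1.

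**Figure D3:**
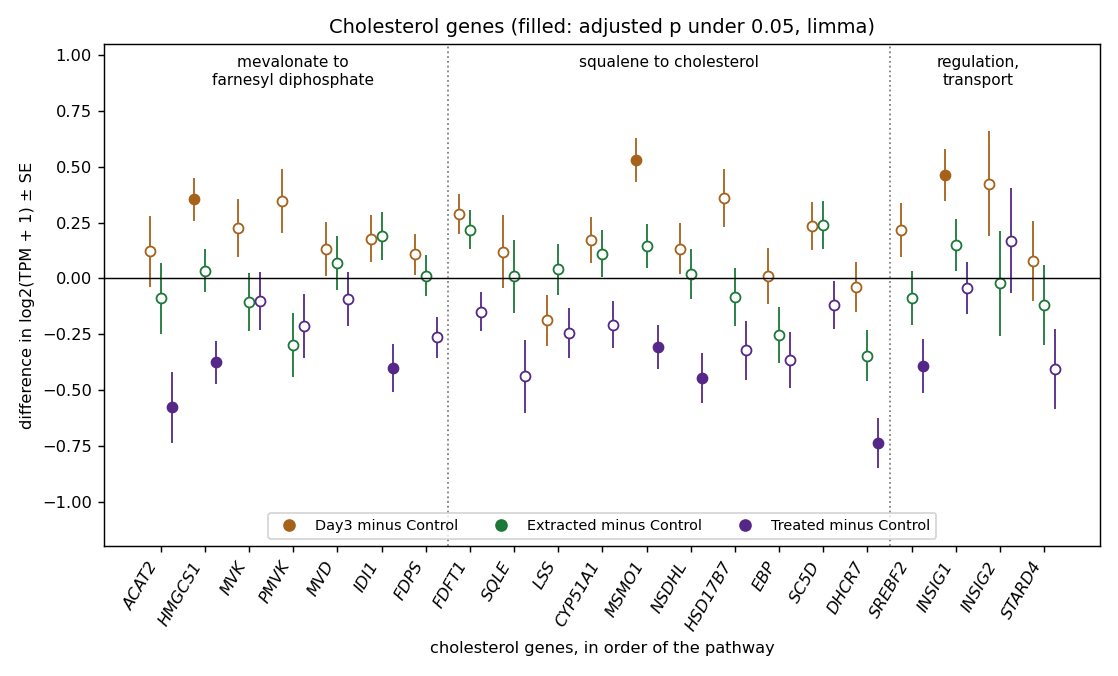
Difference from Control in log2(TPM + 1), with its SE, for the 21 cholesterol genes in pathway order (x axis) in Day3, Extracted and Treated; filled points had an adjusted p under 0.05 in limma. Of the 21 Treated points, 20 lie below 0, while 19 of the 21 Day3 points lie above it. Among all 15167 tested genes, 5232 had a value above 0 in Treated and 8903 in Day3.

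In the gel the cholesterol branch was near the shift of all genes at Day1 and slightly above it at Day3. In Day1, 3 of 21 genes were called higher (HMGCS1, MSMO1 and SREBF2) and 1 lower (LSS), with a median of 0.04, where that of all genes was 0.12. These counts are near the shares of all tested genes, 14.4% higher and 6.28% lower. In Day3, 3 were called higher (HMGCS1, MSMO1 and INSIG1) and 0 lower, where 5.18% of all genes were called higher and 4.64% lower. Of the 21 values, 19 were above 0, as were 8903 of all 15167 tested genes, and the median was 0.18 against 0.06 for all. Day3 against Day1 had 0 calls among the 21 in limma (4 with an unadjusted p under 0.05), 18 values above 0 and a median of 0.12. Among all 15167 tested genes, 6099 were above 0 in this comparison. Of the 21, 1 gene was called under each of the other 2 scalings. LSS, the cyclase that closes the sterol ring (chromosome 21), stood at 25.7 and 27.5 TPM in Day1, against 35.7 and 40.2 TPM in Control, a difference of -0.50 (SE 0.11, adjusted p = 0.0142) that held in every setting but not without Control replicate 2 or Day1 replicate 1 (-0.58 to -0.41). Under median-ratio scaling the Day1 counts became 1 higher and 3 lower (median -0.08), and with mitochondrial mRNAs and small RNAs removed 0 higher and 4 lower (median -0.15). The Day3 count became 1 higher under either. It was 0 without any 1 of the 2 Control or 2 Day3 libraries.

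Extracted cells did not differ from Control in any cholesterol gene at the adjusted threshold: 0 of 21 were called in limma (2 had an unadjusted p under 0.05), 12 values were above 0, and the median was 0.01. Among all 15167 tested genes, 7160 were above 0. Against Day3, the group from which they had been taken out, 4 of 21 were called lower and 0 higher, with a median of -0.21, where that of all genes was -0.07. Of all tested genes, 10.8% were called lower and 6.3% higher in this comparison. The 4 were HMGCS1, MSMO1, PMVK and HSD17B7. PMVK, the kinase of the second phosphorylation of mevalonate, stood at 18.3 and 20.8 TPM in Extracted, against 31.4 and 30.8 TPM in Day3, a difference of -0.64 (adjusted p = 0.0139). HSD17B7, which reduces a sterol ketone, stood at 7.63 and 8.29 TPM in Extracted, against 10.9 and 11.4 TPM in Day3, a difference of -0.44 (adjusted p = 0.0433). PMVK was the one call left under median-ratio scaling and with mitochondrial mRNAs and small RNAs removed, and 0 were left without any 1 of the 4 libraries compared.

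Of the regulators, SREBF2 was higher at Day1 and lower in Treated. SREBF2 (chromosome 22) stood at 86.2 and 78.5 TPM in Day1, 72.6 and 65.5 TPM in Day3, 57.4 and 53.9 TPM in Extracted, 49.03 and 40.97 TPM in Treated, and 55.3 and 63.3 TPM in Control. Day1 lay above all other libraries, Day3 next, and Treated below all, while Extracted overlapped Control. SREBF2 rose by 0.47 in Day1 (SE 0.12, adjusted p = 0.0235), and Treated against Control gave -0.39 (SE 0.12, adjusted p = 0.0401). Day3 gave 0.22 (adjusted p = 0.283) and Extracted -0.09 (adjusted p = 0.76). The Day1 call was lost without either Control library or Day1 replicate 1 (0.37 to 0.56) and with mitochondrial mRNAs and small RNAs removed, and the Treated call without either Control library or Treated replicate 2 (-0.52 to -0.27) and under median-ratio scaling.

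INSIG1, itself a target of SREBP, stood at 16.8 and 16.8 TPM in Day1, 18.8 and 17.9 TPM in Day3, 16.0 and 13.3 TPM in Extracted, 12.6 and 12.7 TPM in Treated, and 13.3 and 12.8 TPM in Control. All 4 gel libraries lay above all others. Its Day3 difference was 0.46 (SE 0.12, adjusted p = 0.0363), lost without any 1 of the 4 libraries (0.43 to 0.50) and under both other scalings, and its Day1 difference was 0.34 (adjusted p = 0.065). INSIG2, the least abundant of the 31 in Control, stood at 8.76 and 6.07 TPM in Day1, 6.78 and 4.80 TPM in Day3, 3.404 and 4.526 TPM in Extracted, 5.64 and 3.76 TPM in Treated, and 3.61 and 4.43 TPM in Control. Both gel groups lay above Control, but the replicates were far apart, and neither Day1 (0.73, SE 0.23, adjusted p = 0.0523) nor Day3 (0.42, adjusted p = 0.283) passed the test. STARD4, a carrier of cholesterol between membranes, averaged 9.99 ± 2.32, 10.2 ± 0.658, 8.85 ± 2.00, 7.004 ± 0.513 and 9.58 ± 0.0247 TPM in Day1, Day3, Extracted, Treated and Control, with 0 calls in limma and an unadjusted p under 0.05 in 1 comparison.

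Ratios of genes within a library do not depend on how the library was scaled. The ratio of FASN to FADS2 was 0.284 and 0.259 in Day1, 0.311 and 0.335 in Day3, 1.04 and 1.08 in Extracted, 0.993 and 1.03 in Treated, and 0.742 and 0.779 in Control. The gel libraries lay below Control and the recovered ones above it. The ratio of ACSS2 to ACLY, the genes of the acetate and citrate routes to acetyl-CoA, was 1.07 and 0.774 in Day1, 0.691 and 0.594 in Day3, 0.703 and 0.578 in Extracted, 1.11 and 1.07 in Treated, and 0.473 and 0.491 in Control. Control was the lowest group for this ratio. The ratio of SREBF1 to SREBF2 was 0.577 and 0.613 in Day1, 0.753 and 0.850 in Day3, 0.780 and 0.867 in Extracted, 1.22 and 1.55 in Treated, and 0.952 and 0.937 in Control. Treated lay above Control, and the other groups below it. These pairs were chosen with the values known, so the ratios are a description with no test.

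**Figure D4:**
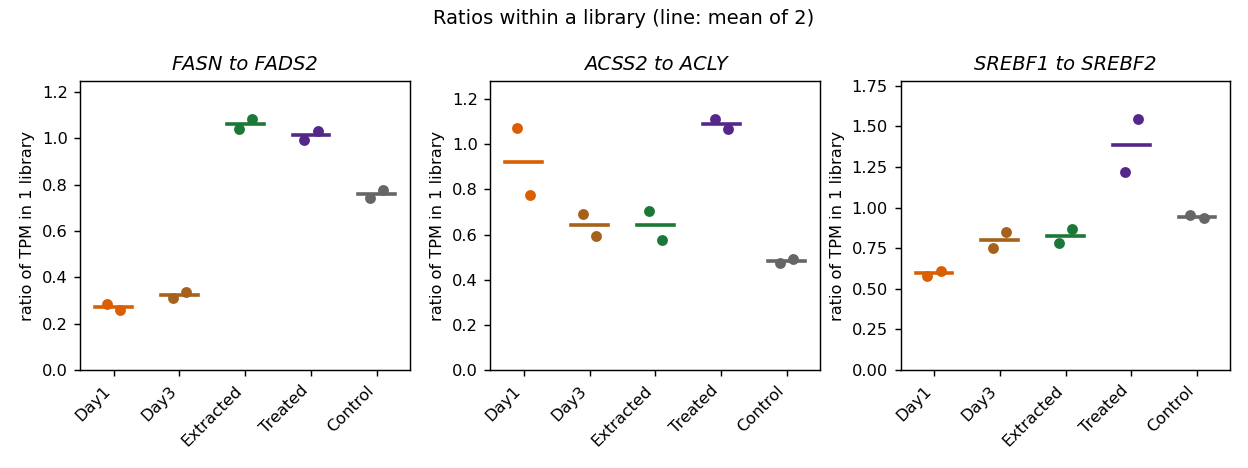
Ratio of the TPM of 2 genes within each library (points) for FASN to FADS2, ACSS2 to ACLY and SREBF1 to SREBF2, by group from Day1 to Control, with a line at the mean of the 2 libraries. FASN to FADS2 lies at 0.259 to 0.335 in the gel groups and at 0.742 and 0.779 in Control, and SREBF1 to SREBF2 lies highest in Treated, at 1.22 and 1.55.

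Other genes of lipid metabolism are read here against the shares of all tested genes called, given above. Of 5 other sterol enzymes, 3 were called lower in Treated and 0 higher, where 18.2% of all genes were called lower, and 2 of the 3 calls held under both other scalings. LBR, a sterol reductase of the nuclear membrane, stood at 32.6 and 29.3 TPM in Treated, against 47.8 and 50.1 TPM in Control. Both Treated libraries lay below both Control libraries, and the difference of -0.65 (adjusted p = 0.00562) was also called under both other scalings.

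Of 12 genes that process SREBP or hold it back, 3 were called lower in Treated and 0 higher, close to the 24.5% of all genes called in either direction, and 2 of the 3 held under both other scalings. SCAP, the escort that carries SREBP to the Golgi, stood at 29.6 and 28.9 TPM in Treated, against 39.4 and 53.0 TPM in Control, a difference of -0.63 (adjusted p = 0.0109). C12orf49, which takes part in SREBP processing, gave -0.53 (adjusted p = 0.014) and was not called under median-ratio scaling. In Day1 and in Day3, 1 of the 12 was called, RNF139 higher in both, and in Extracted 0 in limma (1 with an unadjusted p under 0.05). Of 13 genes of the isoprenoid branch, which makes dolichol, ubiquinone and lipid anchors of proteins from the same precursors, 5 were called lower in Treated and 0 higher, all 5 also in both other scalings, where 18.2% of all genes were called lower. DOLK, the dolichol kinase, gave -0.80 (adjusted p = 0.000984) and PGGT1B, a subunit of a geranylgeranyl transferase, -0.81 (adjusted p = 0.0118). In Day1, 3 of the 13 were called higher, and of these GGPS1, the synthase of geranylgeranyl diphosphate, was called in all 3 scalings (63.4 and 51.3 TPM in Day1, 33.9 and 27.8 TPM in Control, 0.87, adjusted p = 0.00267).

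Of 17 tested genes of elongation and desaturation outside the 10, 5 were called higher in Day1 and 0 lower, where 14.4% of all genes were called higher, against 1 of 17 higher in each of Day3, Extracted and Treated and 1 lower in Treated. SCD5, a desaturase related to SCD, stood at 99.2 and 100.8 TPM in Day1, against 64.8 and 63.6 TPM in Control, a difference of 0.63 (adjusted p = 0.00174), and was the only one of the 5 called in all 3 scalings. HACD2, a dehydratase of chain elongation, gave 0.56 in Day1 (adjusted p = 0.0172). THRSP, which is known in liver to promote fatty-acid synthesis, stood at 1.43 and 1.67 TPM in Day1, 2.47 and 3.54 TPM in Day3, 6.43 and 6.32 TPM in Extracted, 16.8 and 14.8 TPM in Treated, and 2.93 and 1.75 TPM in Control. Treated was the highest group and Extracted next, with no overlap with any other. Treated against Control gave 2.35 (SE 0.20, adjusted p = 8.3e-05), Extracted against Control 1.16 (adjusted p = 0.0233) and Treated against Extracted 1.19 (adjusted p = 0.00875), and all 3 were called in all 3 scalings. The change of such a low gene is understated on this scale.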

How the data were processed

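RNA of 10 OVCAR-3 cultures was sequenced, 2 biological replicates in each of 5 groups, per the labels. The authors deposited TPM per gene and library; the submitters' processing notes name Trimmomatic, STAR, Cufflinks and GRCh38, without versions or a gene annotation. TPM hold no read counts, so depth is unknown and no count test was run. Of 58313 entries, 91 shared an identifier with an earlier one; TPM were summed per identifier, giving 58222 genes, 57959 of them in GENCODE 29, which gave positions.

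Genes at 1 TPM or more in at least 2 libraries (15167) were fitted under R 4.3.3 in limma 3.58.1, with log2(TPM + 1) as the response and a coefficient for each group, over all 10 libraries (5 residual degrees of freedom) and trended empirical Bayes variances. P-values were adjusted over all tested genes by the Benjamini-Hochberg method and called under 0.05. These p-values set a difference against a variance pooled over all 10 libraries of the 5 groups, not the spread of the compared groups alone. With 2 replicates a group they speak only of these cultures. The script was tested on simulated libraries with 200 changed genes. Of these, 73% of the 2-fold and 37% of the 1.5-fold changes were called, along with 6 unchanged genes. Many changes of such size can thus go uncalled. Tables used pandas 2.3.3 and NumPy 2.4.6, and plots Matplotlib 3.10.9, under Python 3.11.15.

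The 31 genes and the other lists were chosen with earlier results of these data known. All 31 are named; values in every library are given for those called in at least 2 comparisons with Control, for the SREBF and INSIG genes, and for others that the text turns on, which were picked after their values were seen. From each other list, up to 3 called genes with the largest change against Control are named, plus RNF139, named as a count of 1; some genes that this rule would name are not reported here. Same-numbered libraries did not deviate together from their group means (correlations -0.0224 to 0.0874), so the fit has no replicate block. Alternatives were a pseudocount of 0.1, no filter, scaling by median ratios, removal of 13 mitochondrial mRNAs and 7085 small RNA genes, a replicate block, a fit of the compared groups alone, and leaving out each library.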

Additional observations from a re-analysis of the deposited data

How the results depend on the processing

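With a pseudocount of 0.1 no gene of the 31 gained or lost a call. Of 40 calls, 8 held in all 6 other settings and without each library compared: FASN in Day1, in Day3 and in Extracted against Day3, FADS1 and FADS2 in Day1, FADS2 in Extracted against Day3, and DHCR7 and ME1 in Treated against Control. No call turned round. Of 3472 differences under other settings or without a library, 115 changed sign, 0 of them called. In the fit as planned, the largest of these differences was 0.197 in size. The counts of calls moved more than the differences.

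For fatty-acid genes, the count in Day3 against Control was 4 in place of 2 under median-ratio scaling, with mitochondrial mRNAs and small RNAs removed, and in the fit of the compared groups alone. Extracted against Day3 likewise gave 4 in place of 2 under these 3 settings. Day3 against Day1 gave 0 in place of 1 without the filter, under each of these 3 settings and with the replicate block. Extracted against Control gave 1 in place of 0 after the removal and in the fit of these groups alone. Treated gave 2 in place of 4 against Control, and 0 in place of 2 against Extracted, in the fit of those groups alone. For cholesterol genes, Day3 against Control gave 1 in place of 3 without the filter, under median-ratio scaling and after the removal, and 5 in the fit of these groups alone; Day3 against Day1 gave 1 in place of 0 under median-ratio scaling and after the removal; Extracted against Day3 gave 2 in place of 4 without the filter and with the block, and 1 under median-ratio scaling and after the removal. Treated against Control gave 2 in place of 7 under median-ratio scaling and 1 in the fit of these groups alone. Treated against Extracted gave, in place of 6, 1 under median-ratio scaling, 2 after the removal and 0 in the fit of these groups alone. With the replicate block, the count of cholesterol genes in Day3 against Control was 2 in place of 3. Apart from the fits that leave out 1 library, counts not named in this paragraph stayed the same or moved by at most 1.5 times. Leaving out a library of a group not compared could move them more. The count of cholesterol genes in Day1 against Control was 7 in place of 4 without either Treated library. In Treated against Extracted it was 2 in place of 6 without either Control library. The cause was not tested.

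Without 1 library at a time, the counts for fatty-acid genes ran from 3 to 5 in Day1, 1 to 3 in Day3, 0 to 1 in Extracted and 1 to 4 in Treated, all against Control, and from 0 to 2 for Day3 against Day1, 2 to 2 for Extracted against Day3 and 0 to 3 for Treated against Extracted. Those for cholesterol genes ran from 0 to 7 in Day1, 0 to 4 in Day3, 0 to 0 in Extracted and 1 to 10 in Treated, against Control, and from 0 to 0 for Day3 against Day1, 0 to 5 for Extracted against Day3 and 0 to 11 for Treated against Extracted. TPM give no depth, and 2 replicates a group limit what small differences the fit can show.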

Other observations

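Beyond synthesis, single genes that break lipids down, store them or take them up differed from Control. Among all tested genes, 20.7% were called against Control for Day1, 9.82% for Day3, 1.99% for Extracted and 24.5% for Treated. Of 19 genes of fatty-acid oxidation, 2 were called higher and 2 lower in Day1, 1 higher and 1 lower in Day3, 0 in Extracted (5 with an unadjusted p under 0.05) and 3 lower in Treated, all against Control in limma, and the counts of Day1 and Treated are near or under these shares. ACADVL, which starts the oxidation of very long chains in mitochondria, stood at 98.2 and 103.8 TPM in Day1, 114.6 and 114.4 TPM in Day3, 195.9 and 194.5 TPM in Extracted, 269.2 and 216.0 TPM in Treated, and 216.9 and 258.2 TPM in Control. The gel libraries lay below all others, with differences from Control of -1.22 in Day1 (adjusted p = 0.00028) and -1.04 in Day3 (adjusted p = 0.00162), called in all 3 scalings. FASN, which builds chains, and ACADVL, which breaks them down, were both called lower in both gel groups. PPARGC1A, a coactivator of mitochondrial genes, stood at 1.14 and 1.91 TPM in Treated, against 4.78 and 5.80 TPM in Control (-1.33, adjusted p = 0.00574).

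Of 14 tested genes of cholesterol uptake and traffic, 5 were called higher and 2 lower in Day1, 1 higher and 1 lower in Day3, 0 in Extracted (2 with an unadjusted p under 0.05), and 2 higher and 3 lower in Treated. VLDLR, a lipoprotein receptor, stood at 39.2 and 37.3 TPM in Day1, against 21.4 and 18.9 TPM in Control (0.90, adjusted p = 0.00221), while LRP8, a related receptor, stood at 9.86 and 8.32 TPM in Day1, against 19.6 and 18.0 TPM in Control (-0.98, adjusted p = 0.004). LIPA, the lysosomal esterase, gave 0.94 in Day1 (adjusted p = 0.00971). In Day1 all 3 were called in all 3 scalings. LRP8 was also called lower in Day3 (-0.84, adjusted p = 0.0141) and in Treated (-0.93, adjusted p = 0.00375). LIPA was also called higher in Treated (0.63, adjusted p = 0.0399). Of 7 tested genes of the lipid droplet, 3 were called higher in Day1, 0 in Day3 (1 with an unadjusted p under 0.05), 1 lower in Extracted and 2 lower in Treated, in limma. PLIN2, a coat protein of droplets, stood at 32.0 and 32.4 TPM in Day1, 31.8 and 27.9 TPM in Day3, 14.8 and 13.9 TPM in Extracted, 16.4 and 14.5 TPM in Treated, and 23.2 and 21.2 TPM in Control, with gel libraries above Control and recovered ones below it. Extracted against Control gave -0.60 (adjusted p = 0.0345). MGLL, a monoglyceride lipase, stood at 19.2 and 8.31 TPM in Day1, against 4.02 and 3.76 TPM in Control (1.49, adjusted p = 0.00689), and ABHD5, which activates triglyceride lipase, gave 0.59 (adjusted p = 0.0104). Of 10 tested genes of activation and glycerolipid synthesis, 1 was called lower in Day1, and 1 higher and 1 lower in Day3. Extracted and Treated had 0 calls in limma (1 and 2 with an unadjusted p under 0.05). LPIN3, a phosphatidate phosphatase, was called lower in Day1 (-1.15, adjusted p = 0.00346) and in Day3 (-0.76, adjusted p = 0.0336). DGAT2, which makes triglyceride, was called higher in Day3 (0.79, adjusted p = 0.0133).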
